A study of Mus musculus with 6 samples.

Results

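The genes described here are those of respiratory complexes II to V, that is, the mitochondrial respiratory chain apart from complex I, together with ATP synthase. They were taken by their mouse gene symbols, as every row named Sdha to Sdhd, Sdhaf, Uqcr, Cyc1, Cox4 to Cox8, Cox10 to Cox20, Atp5, mt-Co, mt-Cytb or mt-Atp, with Cox6a2 left out. This gave 73 of the 51912 genes in the table, 8 for complex II, 12 for complex III, 30 for complex IV and 23 for complex V. They comprise 51 genes of structural subunits, 15 of assembly or other factors, and 7 pseudogenes. Of the 73, 58 passed the filter on low counts and were tested. The cells were EL4, a mouse T cell lymphoma line labelled as wild type, in culture. The comparison is of 3 libraries from cells given 10 µM RGFP966, which inhibits histone deacetylase HDAC3, for 24 h with 3 libraries from cells given vehicle, and asks which transcripts differ under the inhibitor. All 6 libraries are of 1 cell line, and the labels do not say whether they came from separate cultures, so p-values measure the spread between these libraries, which may be technical.

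The respiratory chain passes electrons from nutrients to oxygen and stores the released energy as a proton gradient across the inner mitochondrial membrane. Complex II (succinate dehydrogenase) feeds electrons from the citrate cycle into ubiquinone, complex III (the cytochrome bc1 complex) moves them on to cytochrome c, and complex IV (cytochrome c oxidase) gives them to oxygen. Complex V (ATP synthase) lets protons back in through a rotating ring and makes ATP. Complexes III, IV and V are mosaics of subunits encoded in the nucleus and subunits encoded in the mitochondrial genome, whereas all subunits of complex II are nuclear. Activated and dividing T cells use this chain beside glycolysis.

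Library totals ran from 12935443 to 16451017 counts. Levels are scaled CPM, each count relative to its library's scaled total. Log2 fold changes are RGFP966 over vehicle, given ± their standard error (SE). A gene was called where the adjusted p of edgeR's quasi-likelihood test, taken over all 13484 genes tested, was under 0.05. The submitters' extraction text names retinas, but all 10 T cell markers passed the filter, with summed levels of 2278 to 2303 CPM in vehicle and 2455 to 2494 CPM under RGFP966, and 12 retina markers summed to at most 5.63 CPM in any library, with Gnat1 and Crx at 0. Summed markers of myeloid cells reached at most 10.3 CPM, with Adgre1 at 0. Those of fibroblasts were 44.1 to 45.1 CPM in vehicle and 54.2 to 56.6 CPM under RGFP966, with 2 of 5 tested and Col3a1 at 0. The part of these differences in the results was not tested. In bulk RNA, fewer cells of a kind and less RNA per cell cannot be told apart.

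Of 40 tested nuclear genes for structural subunits, 23 were lower under RGFP966, each by a small amount, and none of 5 tested genes of the mitochondrial genome was called. Among these 5, mt-Co2, mt-Co3 and mt-Atp6 had SEs of 0.23 to 0.32, so changes as small as those of the nuclear genes could go uncalled. Of the 58 tested genes of complexes II to V, 24 were called lower and 0 higher, with 34 not called. Over all genes tested, 11.9% were called lower and 11.4% higher. The median log2 fold change was -0.11 over the 58 genes (range -0.48 to 0.45) and -0.00 over all genes. At an unadjusted p under 0.05, 26 of the 58 were lower and 0 higher, but no share over all genes was taken at that threshold. DESeq2 called 22 lower and 0 higher, and limma-voom 25 lower and 0 higher. Over all genes, DESeq2 called 1076 lower and 1011 higher of 11796, and limma-voom 1535 lower and 1505 higher of 13484. All 3 RGFP966 libraries lay below all 3 vehicle libraries for 29 of the 58 genes, against 18.5% of all genes tested. The reverse held for 1 gene, Sdhc, but no share over all genes was taken in that direction. Whether 29 against 1 is more uneven than among all genes was therefore not tested.

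The called genes were unevenly spread over the complexes and roles. Complex V had 12 of 18 tested genes called lower, complex IV 8 of 23, complex III 3 of 10 and complex II 1 of 7. By role, 23 of 40 nuclear subunit genes were called lower (median log2 fold change -0.17), against 1 of 13 assembly or other factors (median -0.00) and 0 of 5 mitochondrial subunit genes (median -0.04). For mt-Co2, mt-Co3 and mt-Atp6 the SEs of 0.23, 0.32 and 0.23 exceed the nuclear median in size, and near-identical nuclear copies share their sequence. The contrast by genome therefore rests mainly on mt-Co1 and mt-Cytb, with SEs of 0.04 each. The shares for complex II (14.3%) and for the factors (7.69%) are near the 11.9% of all genes tested. Role goes together with level here: the median vehicle level was 167 CPM for the tested nuclear subunit genes and 21.5 CPM for the factors. The part of level in this contrast was not tested. Differences between complexes, roles or genomes were not themselves tested. The 24 called genes had log2 fold changes from -0.38 to -0.11, that is, changes in level of -23.2% to -7.22%, with a median of -14.5%.

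Expression level moved with the share of calls. Among tested genes averaging 100 CPM or more, 22.2% were called lower, against 4.60% of those under 30 CPM. The members of the complexes at 100 CPM or more were called lower in 17 of 31 cases, those at 30 to 100 CPM in 6 of 16 (18.0% of all such genes) and those under 30 CPM in 1 of 11. Among genes in the top quintile of GC content, 18.5% were called lower, and 7 of the 9 members there were. Among genes in the lowest quintile of exonic length, where 30 members fall, 9.80% of all genes and 14 of the members were called lower. The second vehicle library was the highest of the 6 for 21 of the 24 called members, against 620 of the 1602 genes called lower overall (38.7%). Without that library 19 members were called lower, and without the third RGFP966 library 18 were. With offsets for length and GC content 26 were. The part of expression level in the members' count was not tested. The choice of scaling also touches these calls: with upper-quartile factors 21 members were called lower, and the calls over all genes became 1270 lower and 1838 higher, against 1602 and 1543.

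**Figure D1:**
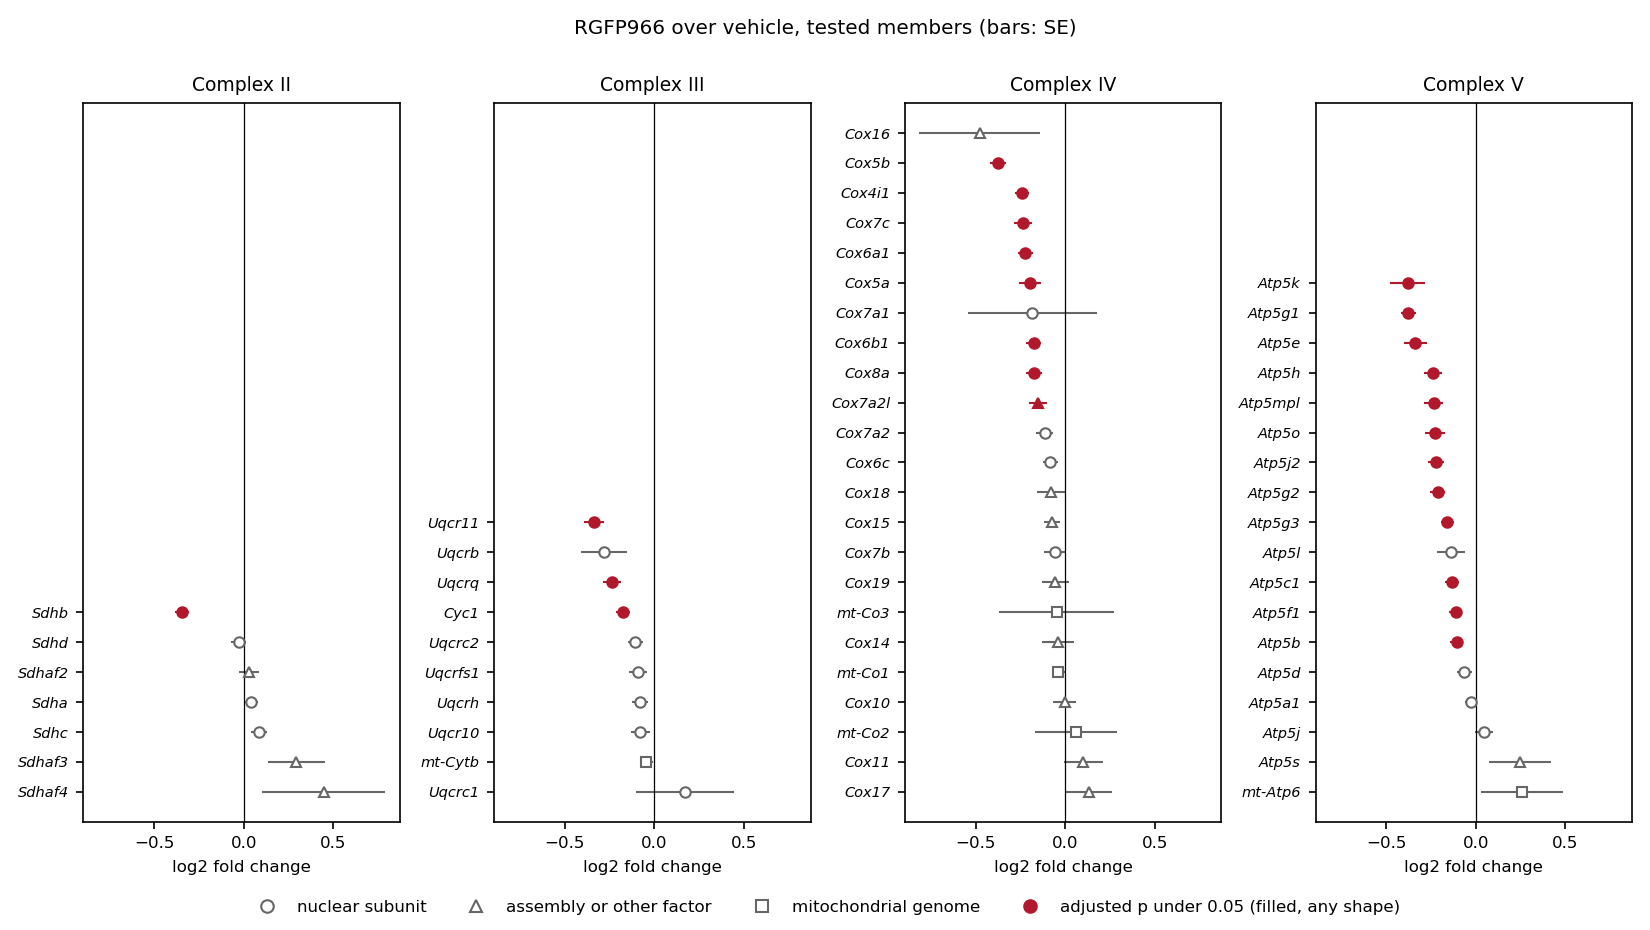
Log2 fold change (RGFP966 over vehicle, horizontal axis) of the 58 tested genes, 1 panel per complex, with bars for the SE and filled symbols for an adjusted p under 0.05. The 24 filled symbols all lie left of 0, between -0.38 and -0.11, and the 5 mitochondrial genes (squares) are all open.

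The sequences before 4 of the called genes are shown because these genes, 1 per complex, had the smallest p among the called subunits with a RefSeq promoter entry (GRCm38.p6). Each runs 5′ to 3′ on the strand of its gene, from 250 bases before the RefSeq start up to the base before the gene's start in the GENCODE M21 annotation. Capitals mark letters that match 1 of 5 motifs on either strand: CCGGAAG (ETS factors such as GABPA), GCGCANGCG (NRF1), CCAAT (NF-Y), CACGTG (E-box) and GGGCGG (SP factors). Matches may overlap, as the joined run before Atp5g1 does, which holds CCAAT on both strands.
Sdhb, chr4:140961021-140961202, plus strand: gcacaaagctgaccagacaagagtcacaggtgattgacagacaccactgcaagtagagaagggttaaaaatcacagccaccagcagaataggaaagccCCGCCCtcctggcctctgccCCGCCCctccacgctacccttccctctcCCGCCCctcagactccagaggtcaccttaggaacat
Uqcr11, chr10:80406831-80407071, minus strand: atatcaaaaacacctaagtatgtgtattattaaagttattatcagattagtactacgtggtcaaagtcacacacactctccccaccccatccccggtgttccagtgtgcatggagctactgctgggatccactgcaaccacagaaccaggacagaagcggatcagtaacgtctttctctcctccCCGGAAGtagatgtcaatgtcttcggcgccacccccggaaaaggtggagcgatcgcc
Cox5b, chr1:36691237-36691448, plus strand: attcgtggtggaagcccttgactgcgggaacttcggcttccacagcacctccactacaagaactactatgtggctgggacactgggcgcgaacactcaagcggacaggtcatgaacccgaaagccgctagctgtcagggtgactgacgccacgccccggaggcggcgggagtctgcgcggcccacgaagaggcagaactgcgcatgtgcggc
Atp5g1, chr11:96075671-96075881, minus strand: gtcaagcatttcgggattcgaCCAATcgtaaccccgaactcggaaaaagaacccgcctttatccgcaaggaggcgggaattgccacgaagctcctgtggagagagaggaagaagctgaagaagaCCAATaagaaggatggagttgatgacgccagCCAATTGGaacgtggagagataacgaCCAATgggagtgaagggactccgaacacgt
The stretch before Sdhb holds GGGCGG at 3 places, all on the opposite strand, and that before Uqcr11 holds CCGGAAG at 1. The stretch before Atp5g1 holds CCAAT at 5 places, and that before Cox5b holds none of the 5 motifs.

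Over the 250 bases before the RefSeq start, promoter entries were at hand for 40 of the 58 tested members, 44 entries in all since some genes have several starts. CCGGAAG occurred in 14 of the 44 (31.8%), against 14.2% of 11896 entries of tested genes and 6.91% of all 32851. GCGCANGCG occurred in 9 of the 44 (20.5%), against 11.1% and 5.16%. CCAAT occurred in 20 of the 44 (45.5%), against 35.4% and 33.8%. The shares for GGGCGG were 34.1%, 56.0% and 32.7%, and for CACGTG 6.82%, 8.26% and 6.02%. Within the members, CCAAT stood in 12 of 20 entries of genes called lower and in 8 of 24 entries of genes not called, and CCGGAAG in 5 of 20 and 9 of 24. The same counts were 5 of 20 and 4 of 24 for GCGCANGCG, 2 of 20 and 1 of 24 for CACGTG, and 6 of 20 and 9 of 24 for GGGCGG. These are counts of letters, not of bound sites, and the differences were not tested.

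In complex II, 1 of the 4 subunits was lower. Sdhb, the iron-sulfur subunit that carries electrons from the flavin to ubiquinone, stood at 185, 199 and 187 CPM in the vehicle libraries and at 150.1, 146 and 153 CPM in the RGFP966 libraries. The groups lie well apart, with the lowest vehicle library above the highest RGFP966 library. Sdhb fell by 21.3%, a log2 fold change of -0.35 ± 0.04, adjusted p = 5.91e-09. Its exons (GRCm38, chromosome 4, 140961203 to 140979193, plus strand) overlap no other annotated exon and share no 50-base stretch with another gene.

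The other complex II subunits were not called. Sdha, the flavoprotein that oxidises succinate and pairs with Sdhb in the catalytic dimer, had 471, 461 and 484 CPM in vehicle and 491, 494 and 475 CPM under RGFP966, with overlapping groups (log2 fold change 0.04 ± 0.04, adjusted p = 0.436). Sdhc, a membrane anchor, had 115, 110.3 and 115 CPM and 118, 125 and 118 CPM. All its RGFP966 libraries were above all its vehicle libraries, but the test did not call it (log2 fold change 0.08 ± 0.04, adjusted p = 0.187). Sdhd, the other anchor and the subunit with the highest level per kilobase of exon in complex II (198 CPM per kilobase in vehicle), had 230.5, 247 and 253 CPM and 236, 242 and 238 CPM, with overlap. Per kilobase, Sdhb stood at 85.0 in vehicle and 66.9 under RGFP966, Sdha at 114 and 118, and Sdhc at 35.0 and 37.0. Of the assembly factors, Sdhaf2, which helps attach the flavin to Sdha, Sdhaf3 and Sdhaf4 had log2 fold changes of 0.03, 0.29 and 0.45, none called, the last from levels under 3 CPM in every library.

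In complex III, 3 of 9 nuclear subunits were called lower: 1 of the 3 redox subunits, of which 1 is mitochondrial, and 2 of 5 small subunits, but neither of the large core proteins. Cyc1, cytochrome c1, which hands electrons to cytochrome c, had 179, 187 and 179 CPM in vehicle and 161, 164 and 157 CPM under RGFP966. The groups did not overlap (log2 fold change -0.18 ± 0.04, adjusted p = 9.09e-04). Uqcrfs1, the Rieske iron-sulfur protein, had 74.9, 79.4 and 79.7 CPM and 69.6, 73.1 and 76.8 CPM, and the groups overlapped (log2 fold change -0.09 ± 0.05, adjusted p = 0.212). Cyc1 fell by 11.5%, and the change of Uqcrfs1 was -6.14%.

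Uqcr11, a small subunit near the Rieske protein, had 75.8, 89.1 and 84.4 CPM in vehicle and 67.2, 61.6 and 68.3 CPM under RGFP966. It showed the largest decrease of the called complex III genes, with a gap between the groups (log2 fold change -0.34 ± 0.06, adjusted p = 5.69e-06). Uqcrq, the subunit that sits beside cytochrome b, had 169, 198 and 174 CPM and 162, 150.4 and 147 CPM, a log2 fold change of -0.24 ± 0.05 with adjusted p = 0.00101. The other small subunits were not called. Uqcrh, the hinge protein of cytochrome c1, had 134, 143 and 136 CPM and 128, 138 and 124 CPM, with overlap, and Uqcr10 had a log2 fold change of -0.08. Uqcrb had 34.6, 48.1 and 36.4 CPM and 35.6, 32.4 and 30.2 CPM. Its second vehicle library stood apart from the other 5, and its log2 fold change was -0.28 ± 0.13 with adjusted p = 0.168. Of the 50-base words of Uqcrb, 25.5% occur in other annotated genes, so its count depends on how shared reads were treated.

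The core proteins of complex III differed in spread. Uqcrc2 had 290.0, 324 and 288 CPM in vehicle and 275, 296 and 268 CPM under RGFP966, a log2 fold change of -0.11 ± 0.04 that missed the threshold (adjusted p = 0.0673). Uqcrc1 had 73.0, 47.3 and 57.2 CPM and 71.1, 80.8 and 48.7 CPM. Its libraries of one group differ from each other by more than the groups do (log2 fold change 0.17 ± 0.27, adjusted p = 0.736).

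Complex IV had 16 nuclear subunit genes, of which 11 were tested and 7 were called lower, with a median log2 fold change of -0.18 over the 11 and no positive value among them. Cox5b, a zinc-binding subunit on the matrix side, had 170.4, 186 and 166 CPM in vehicle and 139, 138 and 127 CPM under RGFP966. Every RGFP966 library was below every vehicle library, and Cox5b fell by 22.8% (log2 fold change -0.37 ± 0.05, adjusted p = 8.23e-09). Of its 50-base words, 11.9% are shared with the pseudogene Gm11273. Its partner Cox5a had 53.9, 62.3 and 59.3 CPM and 50.8, 53.1 and 49.6 CPM, also without overlap (log2 fold change -0.20 ± 0.06, adjusted p = 0.0120). Cox5a was not called without the second vehicle library (adjusted p = 0.0940) or without the third RGFP966 library (0.0884), nor by DESeq2 on all libraries (0.0683).

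Several complex IV subunits exist as forms that differ between tissues, and in EL4 cells nearly all counts of subunits 4, 6b, 7a and 8 came from the widespread form. Cox4i1, the widespread form of subunit 4 that binds ATP, had 187, 197 and 191 CPM in vehicle and 170.3, 157 and 159 CPM under RGFP966, with no overlap (log2 fold change -0.24 ± 0.04, adjusted p = 1.29e-05). Its lung form Cox4i2 had 2 counts in all libraries together, under the limit of 3 counts taken as detection. Cox6a1, the liver form of subunit 6a, had 315, 301 and 284 CPM and 260.3, 260.0 and 252 CPM (log2 fold change -0.22 ± 0.04, adjusted p = 2.09e-05), and it had the highest level per kilobase of the nuclear complex IV genes, 428 CPM per kilobase in vehicle and 367 under RGFP966. In this gene the first vehicle library, not the second, was the highest. Its heart and muscle form Cox6a2, which is not among the 73 genes, had 1.63, 3.12 and 1.92 CPM in vehicle and 0.294, 1.32 and 0.603 CPM under RGFP966 and was called lower from these low levels (log2 fold change -1.61 ± 0.37, adjusted p = 0.00112).

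Cox6b1, a subunit at the dimer contact, had 165, 177 and 172 CPM in vehicle and 155, 153 and 147 CPM under RGFP966. The groups stood apart, and the log2 fold change was -0.18 ± 0.04 with adjusted p = 0.00131. Its testis form Cox6b2 had 5 counts over the 6 libraries and was not tested. Cox8a had 192, 222 and 199 CPM and 179.6, 187 and 177 CPM, again with a gap between the groups (log2 fold change -0.17 ± 0.04, adjusted p = 0.00255). Of its other forms, the muscle form Cox8b had 7 counts in all and Cox8c 0, which at a limit of 3 counts allows at most 0.0338 CPM over the libraries together. Cox7c, the last called subunit, had 175, 211 and 185 CPM and 165, 164 and 157 CPM (log2 fold change -0.24 ± 0.05, adjusted p = 0.00121), with 22.1% of its 50-base words found in other genes.

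In the subunit 7a family the 3 members were not alike in level. Cox7a2, the widespread form, had 117, 123 and 114 CPM in vehicle and 111, 113 and 103 CPM under RGFP966. Its groups did not overlap, but it missed the threshold (log2 fold change -0.11 ± 0.05, adjusted p = 0.0625). The heart and muscle form Cox7a1 had 1.89, 1.29 and 0.768 CPM and 1.32, 0.698 and 1.41 CPM, which is 1.10% of the counts of the pair in vehicle and 1.05% under RGFP966, and was not called. Summed muscle markers were at 0.3198 to 0.429 CPM in vehicle and 0.147 to 0.268 CPM under RGFP966, with Myh1, Myh2, Myh4, Ckm and Actn2 at 0. Cox7a2l, a related protein that joins complexes III and IV into supercomplexes, had 78.1, 81.7 and 74.6 CPM and 69.4, 71.8 and 69.6 CPM and was called lower (log2 fold change -0.15 ± 0.05, adjusted p = 0.0233). That call was lost without the first (adjusted p = 0.0598) or second vehicle library (0.116) and without the first (0.0836) or the third RGFP966 library (0.100), and also with all libraries under upper-quartile factors (0.0610) and in DESeq2 (0.0933).

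Cox6c and Cox7b were, with Cox7a2, the most abundant nuclear subunits of complex IV that were not called. Cox6c had 302, 337 and 317 CPM in vehicle and 312, 313 and 278 CPM under RGFP966, and Cox7b had 130.5, 153 and 129.7 CPM and 132, 140.4 and 125 CPM. Both overlapped between the groups, with log2 fold changes of -0.08 ± 0.04 and -0.06 ± 0.06. The other assembly factors of complex IV, which make heme A (Cox10, Cox15), deliver copper (Cox11, Cox17, Cox19) or insert and stabilise the core subunits (Cox14, Cox16, Cox18), had log2 fold changes from -0.48 for Cox16 to 0.13 for Cox17, and none was called. Cox16 and Cox15 lay below vehicle in all 3 RGFP966 libraries, Cox16 at under 2 CPM throughout. Of the exonic bases of Cox16, 56.8% overlap Gm20498 on the same strand, and 54.2% of its 50-base words are shared. Of those of Cox11, 48.3% overlap Tom1l1 on the other strand. The counts of both genes therefore depend on how such reads were treated.

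Complex V had the most calls, 12 of 16 nuclear subunits. In the F1 head, which makes ATP, the alpha and beta subunits had the highest CPM of the nuclear members, not corrected for length. Atp5b, the catalytic beta subunit, had 1524, 1569 and 1593 CPM in vehicle and 1451, 1493 and 1404 CPM under RGFP966. The groups were close but did not overlap (log2 fold change -0.11 ± 0.03, adjusted p = 0.0178), and the call was lost without the third vehicle library (adjusted p = 0.126) or without the first (0.0826) or the third RGFP966 library (0.169), and with upper-quartile factors (0.0592). Atp5a1, the alpha subunit and the highest per kilobase of the nuclear members (485 CPM per kilobase in vehicle, 477 under RGFP966), had 1499, 1507 and 1558 CPM and 1509, 1535 and 1438 CPM. Its groups overlapped, and it was not called (log2 fold change -0.03 ± 0.03, adjusted p = 0.650).

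The central stalk turns inside the head. Its gamma subunit Atp5c1 was called lower (log2 fold change -0.13 ± 0.04, adjusted p = 0.00740), a call lost without the second vehicle library (adjusted p = 0.0538) or the third RGFP966 library (0.0510). Its epsilon subunit Atp5e had 47.2, 51.9 and 49.3 CPM in vehicle and 39.0, 37.6 and 40.5 CPM under RGFP966. The difference is larger than the spread within either group (log2 fold change -0.34 ± 0.06, adjusted p = 4.84e-05). The delta subunit Atp5d had 140.1, 146 and 142 CPM and 138, 137 and 134 CPM, without overlap but not called (log2 fold change -0.06 ± 0.04, adjusted p = 0.298).

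The ring of c subunits that protons turn is encoded by 3 genes, Atp5g1, Atp5g2 and Atp5g3, which give the same mature protein from different precursors, and all 3 were called lower. Atp5g1 had 152, 171 and 157 CPM in vehicle and 125, 122 and 124 CPM under RGFP966 and fell by 22.98%, with the smallest p of all members (log2 fold change -0.38 ± 0.04, adjusted p = 2.71e-09). Its RGFP966 libraries lay close together, well under the lowest vehicle library. Atp5g2 had 175, 187 and 171 CPM and 155, 152 and 152 CPM (log2 fold change -0.21 ± 0.04, adjusted p = 1.06e-04), and Atp5g3 had 297, 314 and 314 CPM and 278, 279.7 and 271 CPM (log2 fold change -0.16 ± 0.04, adjusted p = 0.00123). As a share of the counts of the 3 genes, Atp5g1 made up 24.8% ± 0.546 (SD, n = 3) in vehicle and 22.3% ± 0.286 under RGFP966, Atp5g3 47.8% ± 1.10 and 49.98% ± 0.455, and Atp5g2 27.5% ± 0.805 and 27.7% ± 0.174. The shares of Atp5g1 and Atp5g3 did not overlap between the groups, and those of Atp5g2 did. Of the 50-base words of Atp5g2, 38.3% occur in another gene, Gm10175 among them, and of Atp5g1 11.1%, mostly in Gm10039.

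The peripheral stalk keeps the head from turning with the ring, and 3 of its 4 subunits were called lower. Atp5h, subunit d, had 167, 193 and 174 CPM in vehicle and 143, 162 and 148 CPM under RGFP966, with the highest RGFP966 library below the lowest vehicle library (log2 fold change -0.24 ± 0.05, adjusted p = 7.63e-04). Atp5o, which joins stalk and head, was called lower (-0.23 ± 0.06, adjusted p = 0.00190), but 47.9% of its exonic bases overlap other annotated genes and 41.6% of its 50-base words are shared. Part of that overlap, 243 bases, is with another annotated gene of the same symbol, which is not among the 73 genes. Atp5f1, subunit b, was called lower (-0.11 ± 0.04, adjusted p = 0.0221), a call lost without the second vehicle library (0.145) and without the first (0.138) or the third RGFP966 library (0.138), and with upper-quartile factors (0.0725). Shared 50-base words make up 19.9% of those of Atp5h, mostly in Gm10250, and 14.3% of those of Atp5f1. Atp5j, coupling factor 6, had 86.5, 95.2 and 89.1 CPM and 90.8, 98.5 and 90.3 CPM. It was not called, and its groups overlapped (log2 fold change 0.04 ± 0.05, adjusted p = 0.576).

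Of the small membrane subunits, which hold ATP synthase dimers together along the folds of the inner membrane, 3 of 4 were called lower. Atp5j2, subunit f, had 159, 175 and 156 CPM in vehicle and 145, 139 and 136 CPM under RGFP966 (log2 fold change -0.22 ± 0.04, adjusted p = 1.40e-04). Atp5mpl, a short membrane protein of the synthase, had 100.1, 115 and 103 CPM and 91.8, 94.3 and 84.0 CPM (log2 fold change -0.24 ± 0.05, adjusted p = 4.74e-04). In both genes the groups were clear of each other. Atp5k, subunit e, was called lower from levels of 16.4 to 27.4 CPM (-0.38 ± 0.10, adjusted p = 0.00327), and lost its call without the second vehicle library (adjusted p = 0.0550) or the third RGFP966 library (0.0581). Atp5l, subunit g, lay below vehicle in all RGFP966 libraries and was not called (log2 fold change -0.14 ± 0.08, adjusted p = 0.219). Atp5s, a coupling factor outside the core enzyme, was not called either (log2 fold change 0.25).

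**Figure D2:**
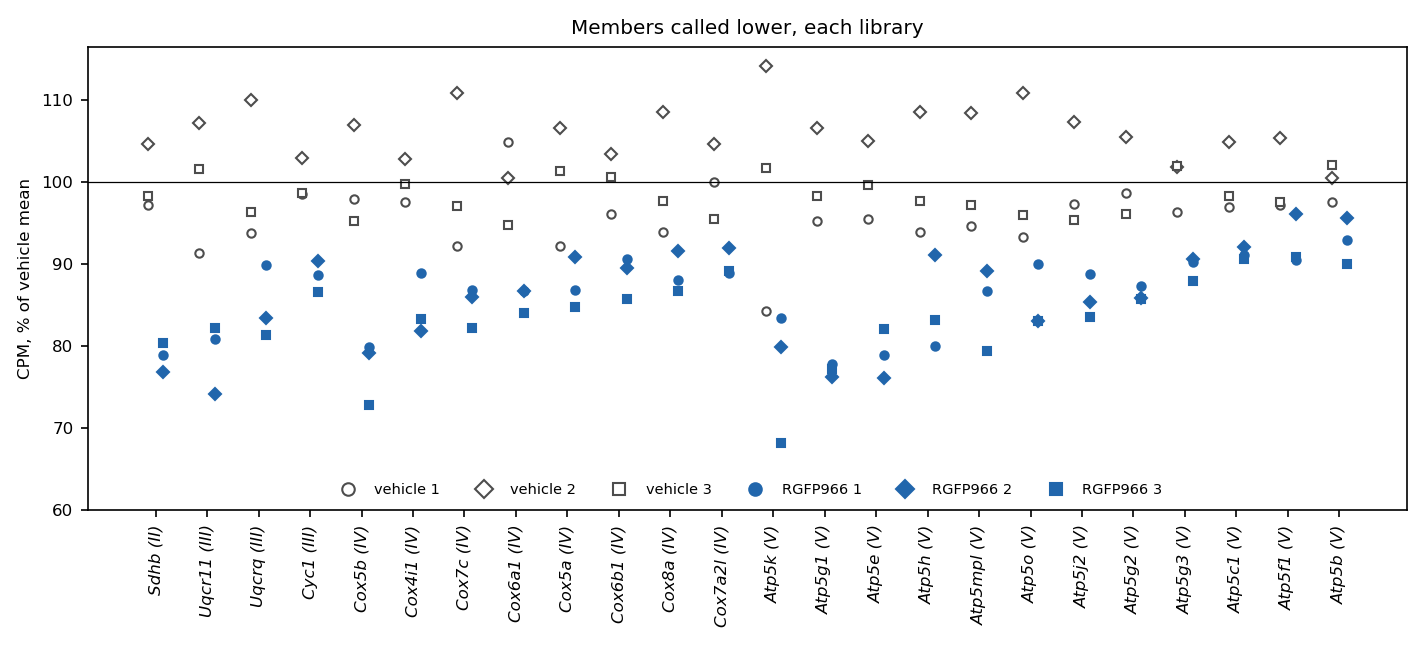
CPM of each library as a percentage of the vehicle mean (vertical axis) for the 24 genes called lower, grouped by complex, with open symbols for vehicle and filled symbols for RGFP966. No gene has a filled symbol above an open one, and the second vehicle library (open diamonds) is the highest in 21 of the 24.

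None of the genes encoded in the mitochondrial genome was called, although mt-Co1 and mt-Cytb had the highest levels of all 73 genes. At an unadjusted p under 0.05, 0 of the 5 tested passed in either direction, and DESeq2 and limma-voom called 0 lower. mt-Co1, the subunit of complex IV that holds the oxygen-reducing site, had 17719.6, 18598 and 16676 CPM in vehicle and 17098, 17661 and 16853 CPM under RGFP966. It alone took 1.76% of all counts in vehicle and 1.73% under RGFP966, and the groups overlapped (log2 fold change -0.04 ± 0.04, adjusted p = 0.497). mt-Cytb, the cytochrome b of complex III, had 5379, 5704 and 5139 CPM and 5191, 5499 and 5019.6 CPM, with overlap (log2 fold change -0.05 ± 0.04, adjusted p = 0.414). It shares no 50-base word with any other annotated gene.

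The other mitochondrial members stood far lower and varied more between libraries of one group. mt-Co2, which takes electrons from cytochrome c, had 139, 157 and 95.6 CPM in vehicle and 121, 155 and 133 CPM under RGFP966. mt-Co3, the third core subunit of complex IV, had 39.8, 63.8 and 30.4 CPM and 38.8, 45.1 and 46.1 CPM, and mt-Atp6, the proton channel of ATP synthase, had 39.5, 45.1 and 26.2 CPM and 40.6, 47.7 and 44.6 CPM. For these 3 genes the third vehicle library was the lowest of the 6, and their SEs of 0.23, 0.32 and 0.23 are several times that of mt-Co1. Their log2 fold changes were 0.06, -0.05 and 0.26, none called. Without the second vehicle library mt-Co3 was called higher (log2 fold change 0.30, adjusted p = 0.0405). mt-Atp8, a short gene of ATP synthase, had 3 counts in all 6 libraries and was not tested. Its low count need not show a low transcript, as the nuclear copies described next may bear on it.

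Near-identical copies of these 3 genes lie in the nuclear genome, side by side on the minus strand of chromosome 1 (GRCm38): Gm28437 at 24613189 to 24613971, Gm10925 at 24613974 to 24614651 and Gm28661 at 24614885 to 24615565, all annotated as unprocessed pseudogenes. Of the 50-base words of mt-Co3, 99.9% occur in Gm28437, as do 99.5% of those of mt-Atp6 in Gm10925 and 99.5% of those of mt-Co2 in Gm28661. The 681 bases of Gm28661 are identical to the first 681 of the 684 bases of mt-Co2. The start of both is shown because a read from it cannot be assigned to either by sequence.
mt-Co2 and Gm28661, bases 1 to 60: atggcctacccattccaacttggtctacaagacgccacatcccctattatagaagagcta
The copies hold a large part of the counts of each pair. Gm10925 had 172, 178 and 131 CPM in vehicle and 159, 188 and 179 CPM under RGFP966, which is 79.7% to 83.3% of the counts of Gm10925 and mt-Atp6 together. Gm28661 held 34.9% to 38.6% of its pair and Gm28437 38.9% to 50.7%. In all 3 copies the third vehicle library was again the lowest, and none was called (log2 fold changes 0.13, -0.09 and 0.33). For mt-Co1, 51.1% of the 50-base words occur in other genes, mainly Gm29216 and Gm13340, which had at most 343 and 235 counts in any library. The rule by which reads with several places were counted is among the steps not given in the sources used here. The levels of mt-Co2, mt-Co3 and mt-Atp6 may therefore hold reads of the copies, or lack reads counted to them. Such reads may also have been left out of the counts altogether, so the sum of a pair need not be its full signal. In the mitochondrial genome mt-Atp8 (bases 7766 to 7969) starts after mt-Co2 and ends within mt-Atp6. Shared words were sought in annotated genes only, so a copy of mt-Atp8 in the bases between Gm10925 and Gm28661 could be missed. The count of mt-Atp8 may therefore lack reads in the same way, which was not tested. In vehicle the pairs of mt-Co2, mt-Co3 and mt-Atp6 averaged 210, 78.5 and 197 CPM, against 17665 CPM for mt-Co1. The part of the counting rule in this was not tested.

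**Figure D3:**
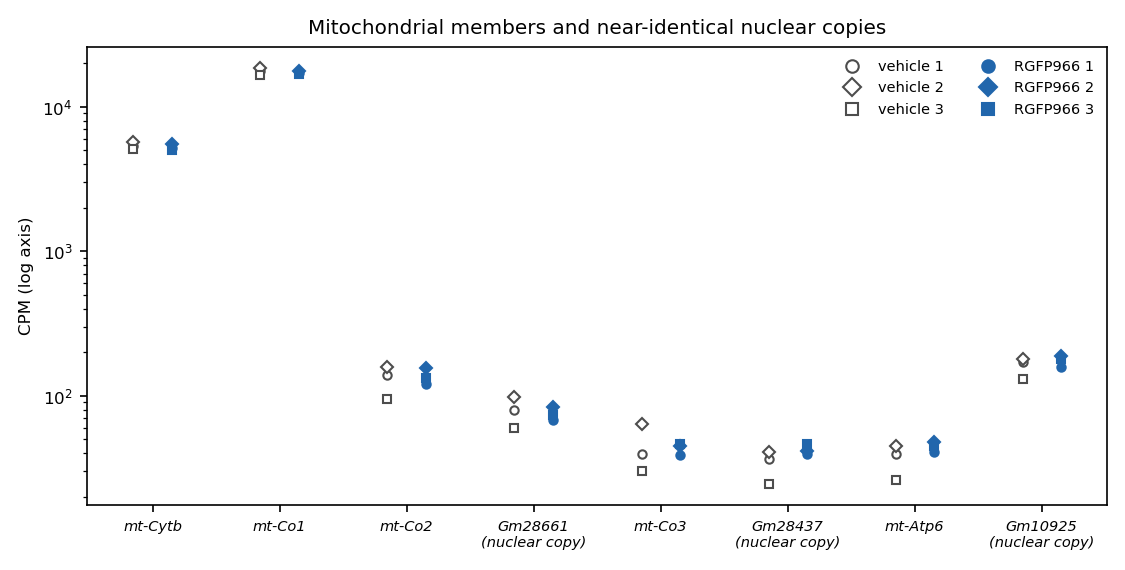
CPM on a log axis of the 5 tested mitochondrial members and of the near-identical nuclear copies of 3 of them, 1 symbol per library. mt-Co1 and mt-Cytb lie far above the others with the groups overlapping, and the third vehicle library (open squares) is the lowest for the other 3 members and their copies.

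As shares of all counts, the nuclear subunits of complexes II to V made up 0.941% ± 0.0253 (SD, n = 3) in vehicle and 0.875% ± 0.0184 under RGFP966, and so fell by 7.02% with no overlap between groups. Leaving out 1 library at a time gave changes of -8.10% to -5.63%. By complex, the share of complex II was 0.101% and 0.0999%, with overlap. The shares of complexes III, IV and V fell by 8.07%, 11.1% and 6.46%, each without overlap between the groups. The summed share of the 15 assembly and other factors also did not overlap, at 0.0409% in vehicle and 0.0401% under RGFP966, a change of only -1.80%. Atp5b and Atp5a1 carry much of the complex V sum, so its change is weighted to these 2 abundant genes. Their log2 fold changes, -0.11 and -0.03, were smaller in size than the median of -0.19 over the 16 nuclear subunits of complex V. The 6 mitochondrial members summed to 2.31% ± 0.131 and 2.27% ± 0.0527 of counts, with overlap. With 3 libraries against 3, an exact permutation test cannot go below p = 0.1, and none is given for these sums.

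**Figure D4:**
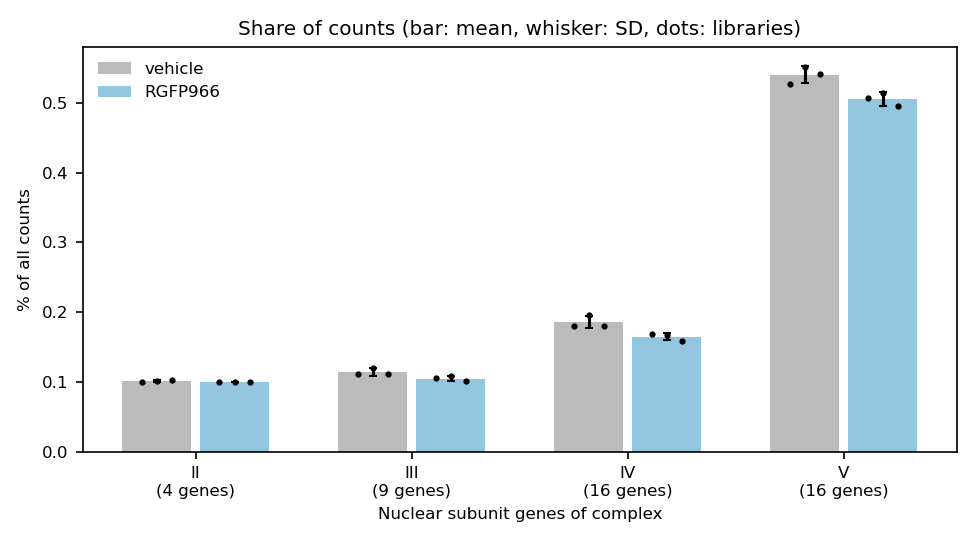
Share of all counts (%, vertical axis from 0) held by the nuclear subunit genes of each complex, with bars for the mean, whiskers for the SD and dots for the 3 libraries of a group. For complexes III, IV and V all RGFP966 dots lie below all vehicle dots, and for complex II they overlap.

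Of the members, 15 did not pass the filter. They were 7 pseudogenes (Uqcrh-ps1, Uqcrh-ps2, Cox6c2, Atp5k-ps2, Atp5l-ps1, Atp5l-ps2 and Atp5l2-ps), the tissue forms Cox4i2, Cox6b2, Cox7b2, Cox8b and Cox8c, mt-Atp8, and the assembly factors Sdhaf1 and Cox20, all under 1 CPM in every library. Of the exonic bases of Cox20, 91.1% overlap another gene, Hnrnpu on the other strand, and of those of Sdhaf1 69.6%. Strand use in the counting is likewise not stated, so low counts there do not show low transcripts.

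Other genes of the pathway were taken from lists that do not overlap with the members. Of 83 listed, 81 were found and 78 tested, of which 16 were called lower and 5 higher (median log2 fold change -0.05), beside 11.9% lower and 11.4% higher over all genes tested. The lists are short, and no count within 1 of them was tested against that background. Over all genes the share called lower was 22.2% at a mean of 100 CPM or more. The carriers and the citrate cycle genes given below, apart from Sucla2, all averaged above 100 CPM. Among 14 electron carriers and enzymes of ubiquinone synthesis, Coq7, a late hydroxylase of that synthesis, had 31.5, 35.5 and 28.8 CPM in vehicle and 19.3, 22.8 and 20.0 CPM under RGFP966. This was the largest change among the called genes of these lists, with the groups far apart (log2 fold change -0.63 ± 0.08, adjusted p = 1.05e-07). Coq3 and Pdss2, other enzymes of ubiquinone synthesis, rose (0.27 and 0.26), and cytochrome c itself, Cycs, was not called (-0.04).

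Among assembly factors outside the naming rule, Bcs1l, which inserts the Rieske protein into complex III, rose (1 of 6 called), as did Tmem70, an ATP synthase assembly factor (1 of 4, 73.9, 82.6 and 78.8 CPM in vehicle and 94.0, 93.4 and 96.2 CPM under RGFP966, log2 fold change 0.27 ± 0.05, adjusted p = 3.62e-05). The Tmem70 change runs opposite to that of the 12 called synthase subunits. Of 15 tested complex IV assembly factors, Lrpprc, which stabilises mitochondrial transcripts, and Higd1a were lower (-0.16 and -0.21), a share near the 11.9% of all genes tested. Of 6 carriers of ATP, ADP and phosphate, 4 were lower: Slc25a5, an ADP/ATP exchanger (-0.14), and the outer membrane channels Vdac1, Vdac2 and Vdac3 (-0.13, -0.21 and -0.11, the last at an adjusted p of 0.04996).

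Of 11 tested genes for expression and copying of mitochondrial DNA, 1 was lower, the polymerase Polg (-0.19), which is again near the 11.9% called lower over all genes. Of 9 nuclear regulators of respiratory genes, Gabpb2, Esrra, Ppargc1b and Pprc1 were lower (-0.28, -0.23, -0.28 and -0.17) and Yy1 was higher (0.12). Of 13 citrate cycle genes, 4 were lower, Idh3a, Idh3g, Suclg2 and Mdh2 (-0.12, -0.13, -0.21 and -0.13), and none was called higher. Genes of ATP synthase that the naming rule misses because of older symbols, Usmg5 and the inhibitor Atpif1, were not called (-0.15 and -0.14).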

How the data were processed

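RNA sequencing of 6 EL4 libraries (3 vehicle, 3 RGFP966; groups from the labels) was used. The deposited table holds raw read counts per Ensembl gene, made by the authors. Libraries were made with the NEBNext Ultra RNA kit, per the labels' protocols. The submitters' processing notes name HTSeq 0.6.0, HISAT2 2.1.0, TopHat2, Bowtie2 2.2.3 and CASAVA, and the build mm10. Not given in the sources used here are the tool that made the counts, the annotation release, the strand setting and the treatment of reads with several places. The table has 0 rows that name no gene and 0 unused sample columns, and 51633 of 51912 IDs (99.46%) matched a symbol. Positions, lengths, GC content, exon overlaps and shared 50-base words came from GENCODE M21 (GRCm38).

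All genes passing filterByExpr (13484) were fitted with edgeR 4.0.16 in R 4.3.3: trimmed mean of M values factors, robust quasi-likelihood F test, group as the only term, Benjamini-Hochberg adjustment over all genes tested, threshold 0.05. SE was taken as the size of the log2 fold change divided by the root of F. CPM are on the scaled library totals. Replicate libraries differed by more than counting noise. The counts have no molecular identifiers, and the errors of the fit cover the spread between these libraries, which may be technical. The script was tested on simulated data.

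The members and lists were chosen with earlier results of these data known. Values in every library are given for called subunits (at most 6 per complex by smallest p) and called factors (at most 3 per complex), all 6 mitochondrial genes, the subunit of highest CPM per kilobase in each complex, named isoform sets, and up to 3 uncalled subunits per complex of highest CPM. Uqcrfs1, Uqcrb, Uqcrc1 and Cox5a fall outside that rule and were chosen after their values were seen, as were the sectors within complexes, which follow textbook structure, the 5 motifs, and Coq7, Tmem70 and Cox6a2. Alternatives were other scaling factors, filters and genes left out, DESeq2 1.42.0, limma-voom (limma 3.58.1), thinned counts, length and GC offsets, a replicate block and each library left out. The result of 1 marker list is not reported here.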

Additional observations from a re-analysis of the deposited data

How the results depend on the processing

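Of the 24 members called lower, 18 kept the call in all 18 alternatives, and 6 (Atp5b, Atp5c1, Atp5f1, Atp5k, Cox5a and Cox7a2l) lost it in at least 1. The number called lower was 21 with upper-quartile factors, 22 with DESeq2 and 24 to 27 under the other alternatives that keep all libraries, and 18 to 26 when 1 library was left out. Complex III had 5 genes called lower, in place of 3, with no filter and with length and GC offsets, and 3 to 5 when 1 library was left out. DESeq2 called 2087 genes in all, against 3145. Members called higher numbered 0 to 1 when 1 library was left out. The 1 was mt-Co3, whose log2 fold change ran from -0.26 to 0.30 over those fits. The summed share of the mitochondrial members changed by -4.53% to 1.02% when 1 library was left out, an alternative chosen after seeing the data, as it was for the nuclear subunits. The cause of these differences was not tested. Low counts limit the lowest members most: Cox16, Cox7a1 and Sdhaf4, at about 1 to 2 CPM, had SEs of 0.34, 0.36 and 0.34 on the log2 scale. For Cox16, reads shared with Gm20498 may add to this.

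The replicate numbers gave no sign of pairing the libraries: deviations from the group means correlated at -0.02, 0.01 and 0.01 between same-numbered libraries. Libraries of unlike number gave -0.03 to 0.02. These correlations run over all tested genes, so pairing that touches only some genes could be missed. With the replicate block 27 members were called lower, 5 of them in complex III, and Cox7a2, Uqcrb and Uqcrc2 were the additions. Over all genes, 3431 were called with the block, against 3145 without it.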
